A study of Mus musculus with 6 samples.

Results

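The 38 genes described here form the signalling chain by which secretagogues, the signals that make a gland secrete, raise cytosolic calcium and cyclic AMP in lacrimal cells. They were listed by name and role, with earlier results of these data known, out of a table of 50686 genes. They comprise 10 receptors (muscarinic, adrenergic, purinergic and for vasoactive intestinal peptide, VIP), 3 G protein alpha subunits, 5 phospholipases C, 4 calcium release channels, 5 genes of store-operated calcium entry, 4 calcium pumps, 2 TRPV channels, 4 kinases and 1 adenylyl cyclase. RNA came from lacrimal glands of mice 13 weeks old, 3 wild-type and 3 Eda-/-, the latter titled Tabby. All bore the strain label C57BL/6 and were stated to be biological replicates. Ectodysplasin A, the product of Eda, belongs to the tumour necrosis factor ligands and acts in the development of skin appendages and exocrine glands. The labels used here give no sex, no treatment beside the genotype and no separation of cell types.

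Lacrimal acinar cells secrete protein, water and electrolytes. In the textbook scheme, acetylcholine from parasympathetic nerves binds muscarinic receptors and noradrenaline binds alpha1 adrenergic receptors, and both act through the Gq class of G proteins on phospholipase C. Its product inositol trisphosphate opens release channels in the endoplasmic reticulum, the emptied store is sensed by STIM proteins that open Orai channels, and pumps then clear the calcium. VIP and beta adrenergic receptors instead act through Gs and adenylyl cyclase.

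The libraries held 11894395 to 15700899 counts. Eda had 41 to 48 counts in the wild-type libraries and 0 to 2 in the Eda-/- libraries, which matches the genotype labels. The acinar markers Aqp5, a water channel, and Bhlha15, a transcription factor, were present in all 6 libraries. Aqp5 had 95.3 to 101 CPM in wild-type and 102 to 124 CPM in Eda-/-, and Bhlha15 had 327 to 356 and 412 to 465 CPM. Of 10 acinar markers listed, 8 were higher in Eda-/- on average, and Slc12a2 and Lcn11 were lower. CPM values here are counts relative to the library total as scaled by the trimmed mean of M-values (TMM). Wild-type 3 stood apart in macrophage markers, whose 11 genes summed to 205 CPM there and to 101 and 112 CPM in wild-type 1 and 2.

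Of the 38 genes, 33 had enough counts to be tested and 5 did not. Divided by exon length, wild-type levels ran from 38.6 CPM per kb for Atp2a2, a pump that fills the calcium store, to 0.0186 CPM per kb for the VIP receptor Vipr2. After Atp2a2 came the ATP-gated channel P2rx4 (22.4 CPM per kb), the phospholipase Plcb4 (17.5), the Gs subunit Gnas (13.5), the release channel Itpr3 (11.5) and the cyclase Adcy6 (10.1). Among the receptors for nerve transmitters, the VIP receptor Vipr1 had 4.82, the muscarinic receptor Chrm3 4.29 and the alpha1 receptor Adra1a 2.41 CPM per kb. In several families 1 gene held most of the message. In wild-type glands Chrm3 was 89.3% ± 3.45 (SD, n = 3) of the muscarinic pair and Adra1a 99.0% ± 1.06 of the alpha1 pair. Among the listed beta phospholipases (Plcb1, Plcb3 and Plcb4), Plcb4 held 88.1% ± 0.953. Itpr3 held 84.7% ± 1.39 of the inositol trisphosphate receptors, Atp2a2 96.1% ± 0.410 of the SERCA pair and Atp2b1 93.1% ± 1.90 of the plasma membrane pump pair. Exon length is the union of all annotated exons, so genes with many rarely used exons are placed too low.

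**Figure D1:**
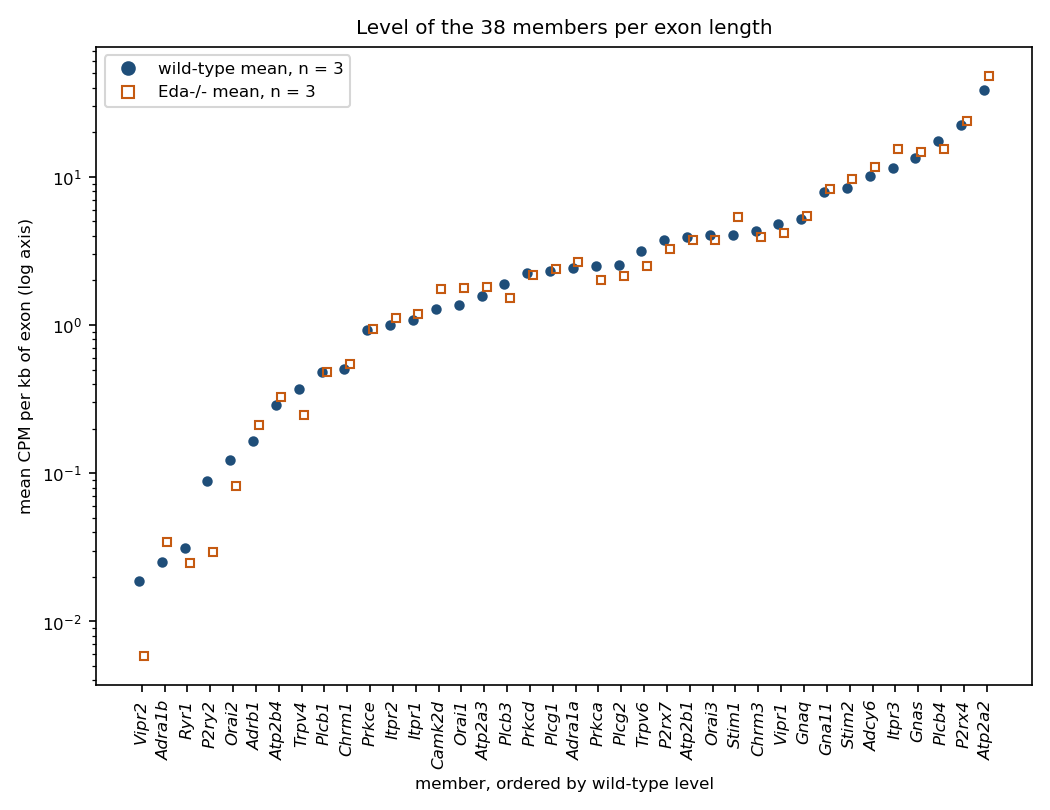
Mean CPM per kb of exon (log axis) for each of the 38 genes, ordered by the wild-type level, with wild-type means as filled circles and Eda-/- means as open squares (n = 3 libraries each). Atp2a2 is highest at 38.6 CPM per kb in wild-type, and Vipr2, Adra1b, Ryr1 and P2ry2 lie at the low end, where single counts move the means.

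Within the chain, 4 genes rose in the Eda-/- glands and none fell. They were Itpr3, a calcium release channel, Stim1, the sensor of store calcium, Atp2a2, the pump that refills the store, and Camk2d, a calmodulin-dependent kinase. Their log2 fold changes were between 0.31 and 0.45. No receptor, G protein subunit or phospholipase passed. The test was edgeR's quasi-likelihood test on counts, with Benjamini-Hochberg adjustment over 13178 genes and a threshold of 0.05. By it 12.1% of the tested members were called, close to the 13.1% of all tested genes. Increases alone made up 12.1% of the members and 6.21% of all tested genes, and decreases 0 members and 6.9% of all tested genes. At an unadjusted p under 0.05 there were 6 members higher and 4 lower of 33, beside 1747 higher and 1878 lower of all 13178 genes. DESeq2 called the same 4 genes higher and none lower. The groups did not overlap in 12 of 33 members (7 higher, 5 lower), beside 32.1% of all tested genes. Without wild-type 3 the same 4 genes passed. The members' median was 0.07 and that of all tested genes 0.

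These values are on the TMM scale, and the calls depend on it. With library totals in its place the median of all tested genes lay at -0.28 and that of the members at -0.21, and 0 members passed higher and 9 lower. The values of the 4 genes were then 0.15 for Itpr3, 0.13 for Stim1, 0.03 for Atp2a2 and 0.17 for Camk2d. In whole glands, fewer cells of a type and less RNA per cell cannot be told apart.

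**Figure D2:**
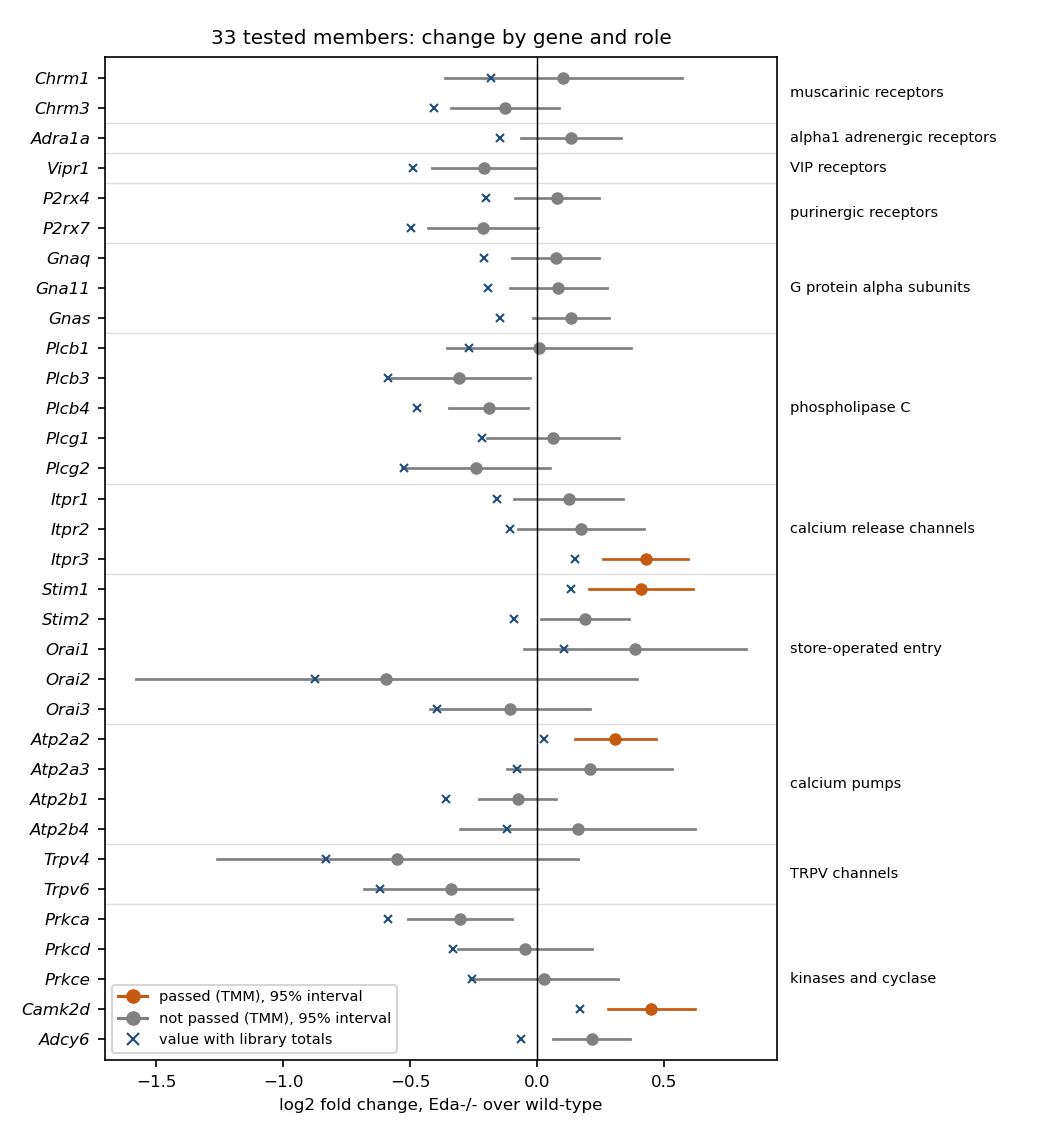
Log2 fold change of Eda-/- over wild-type for the 33 tested genes, grouped by role, as circles with 95% intervals on the TMM scale (orange where the gene passed, grey where it did not) and as crosses with library totals in place of TMM. Itpr3, Stim1, Atp2a2 and Camk2d passed, and every cross lies to the left of its circle.

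The receptors gave no call in either direction. Chrm3, the main muscarinic receptor of exocrine acinar cells, had 29.7, 27.5 and 23.3 CPM in the wild-type libraries and 24.2, 23.3 and 26.2 CPM in the Eda-/- libraries. The groups overlapped, and the log2 fold change of -0.13 had a 95% interval of -0.34 to 0.09. Chrm1, also muscarinic, had 2.41 to 4.11 CPM in wild-type and 3.27 to 3.94 CPM in Eda-/-, with a log2 interval of -0.36 to 0.57. Adra1a, the alpha1 receptor for noradrenaline, had 19.1 to 23.0 and 22.9 to 23.3 CPM (log2 0.13, interval -0.06 to 0.33). For these 3 receptors the groups overlapped and the intervals spanned 0. Vipr1, the receptor for VIP released by parasympathetic nerves, had 28.1, 27.1 and 28.8 CPM in wild-type and 24.9, 26.9 and 20.97 CPM in Eda-/-. All 3 Eda-/- values lay below all wild-type values, but the log2 fold change of -0.21 (SE 0.10) did not pass (edgeR adjusted p = 0.175).

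Among the ATP receptors, the abundant channel P2rx4 had 153 to 164 CPM in wild-type and 151 to 177 CPM in Eda-/- (log2 0.08, interval -0.09 to 0.24). P2rx7, an ATP-gated channel also found on macrophages, had 23.6, 19.3 and 24.6 CPM in the wild-type libraries and 19.3, 18.9 and 19.9 CPM in the Eda-/- libraries (log2 -0.22, edgeR adjusted p = 0.184). Wild-type 2 lay within the range of the Eda-/- libraries. Macrophage markers differed beside it: 6 of 11 fell and none rose, and their sum was 101 to 205 CPM in wild-type and 46.9 to 57.5 CPM in Eda-/-. Their part in the P2rx7 values was not tested. P2rx7, P2rx4, Atp2a2 and Orai1 lie near each other on chromosome 5, and of the 4 only Atp2a2 passed.

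Of the 5 untested genes, 4 are receptors. Counts of P2ry2, a receptor for ATP and UTP, were 6, 6 and 5 in the wild-type libraries, against 2, 1 and 1 in the Eda-/- libraries. Every Eda-/- count was below every wild-type count, and the exact binomial (Clopper-Pearson) 95% interval of the ratio reached 1 (ratio 0.327, interval 0.0802 to 1.0). Adrb1, a beta adrenergic receptor, had 27 counts in the wild-type group and 25 in the Eda-/- group (ratio 1.29, interval 0.717 to 2.31). Adra1b, an alpha1 receptor, had 4 counts in each group (ratio 1.39, interval 0.259 to 7.47). Vipr2 had 4 counts in wild-type and 1 in Eda-/- (ratio 0.348, interval 0.00707 to 3.52). These intervals cover counting error only, and for Adrb1, Adra1b and Vipr2 no difference was detectable at this depth.

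The G protein alpha subunits had log2 fold changes of 0.07 to 0.13, and none passed. Gnaq and Gna11 couple receptors to phospholipase C. Gnaq had 32.2 ± 0.496 CPM (SD, n = 3) in wild-type and 33.8 ± 1.90 CPM in Eda-/-, and Gna11 32.1 ± 0.618 and 34.1 ± 3.66 CPM. Gnas, the stimulatory subunit that activates adenylyl cyclase, had 151, 151 and 150 CPM in the wild-type libraries and 171, 170 and 155 CPM in the Eda-/- libraries. All 3 Eda-/- values were the higher, yet the change did not pass (log2 0.13, SE 0.07, edgeR adjusted p = 0.242). It passed after correction for GC content and length (0.20, adjusted p = 0.0421). The Gnas locus encodes several overlapping transcripts that these gene counts do not separate.

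The phospholipases C, which cut a membrane phosphoinositide into inositol trisphosphate and diacylglycerol, gave no call, and 3 of 5 had log2 fold changes below 0. Plcb4, the most abundant of the 5 per kb, had 167, 157 and 147 CPM in the wild-type libraries and 133, 142 and 138 CPM in the Eda-/- libraries. The groups did not overlap, and the change of -0.19 (SE 0.07) did not pass (edgeR adjusted p = 0.0993). Plcb3, another beta phospholipase, had 12.5, 12.5 and 14.3 CPM in the wild-type libraries and 12.8, 9.75 and 9.12 CPM in the Eda-/- libraries (log2 -0.31, adjusted p = 0.140). Eda-/- 1 lay within the wild-type range, and without it Plcb3 passed (-0.47, adjusted p = 0.0318). Plcb1 had a log2 fold change of 0.01 (interval -0.35 to 0.37) and Plcg1, a phospholipase activated by tyrosine kinases, 0.06 (interval -0.20 to 0.32). Plcg1 shares 379 exon bases with Zhx3 on the opposite strand, and the strand setting of the counting is not stated, so their reads may mix.

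Plcg2, a phospholipase known from B cells and myeloid cells, had 11.3, 8.94 and 12.7 CPM in the wild-type libraries and 9.60, 8.81 and 9.36 CPM in the Eda-/- libraries (log2 -0.24, edgeR adjusted p = 0.272). Its highest value was in wild-type 3, the library with the highest macrophage sum. B and plasma cell markers lay the other way, at 11.9 to 41.2 CPM in wild-type and 45.3 to 114 CPM in Eda-/-, with the B cell marker Ms4a1 at 0 in all Eda-/- libraries and in wild-type 1 and 3. The part of either cell type in the Plcg2 values was not tested.

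Itpr3 encodes the inositol trisphosphate receptor that held most of the message for these release channels (chr17:27057304-27122223, plus strand, ENSMUSG00000042644.8, GRCm38). It had 107, 98.7 and 105 CPM in the wild-type libraries and 152, 141 and 126 CPM in the Eda-/- libraries. The lowest Eda-/- value exceeded the highest wild-type value. The change was 0.43 (SE 0.08, 95% interval 0.26 to 0.59, edgeR adjusted p = 0.00210), and it passed with each library left out in turn (0.37 to 0.50, adjusted p up to 0.0169). Itpr1 and Itpr2, the other inositol trisphosphate receptors, did not pass. Itpr1 had 18.3 to 22.7 CPM in wild-type and 20.5 to 22.7 CPM in Eda-/- (0.12, adjusted p = 0.470), and Itpr2 13.3 to 16.3 and 14.8 to 19.3 CPM (0.17, adjusted p = 0.374). Ryr1, the ryanodine receptor of skeletal muscle, was not tested, with counts of 11, 11 and 11 in wild-type against 6, 6 and 7 in Eda-/- libraries (ratio 0.801, interval 0.431 to 1.45). Skeletal muscle markers were near 0, their 10 genes summing to 1.28 to 2.74 CPM in wild-type and 0.780 to 1.40 CPM in Eda-/-. Tnnc2 and Tnnt3 had 0 counts in all Eda-/- libraries and 0 to 4 counts a library in wild-type.

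For Itpr3 and Stim1, the 250 bases before the RefSeq transcription start (GRCm38.p6) are shown with matches to an NF-kB motif in capitals. Camk2d also rose, and its window, which held no match, is not printed. Ectodysplasin A is known to signal through NF-kB, and its part in these increases was not tested. The motif was GGG, then any 5 bases, then CC, on either strand, and overlapping matches run together. The last 13 bases of the Stim1 window lie past the start of the gene in GENCODE.
Itpr3 (chr17:27057054-27057303, plus strand): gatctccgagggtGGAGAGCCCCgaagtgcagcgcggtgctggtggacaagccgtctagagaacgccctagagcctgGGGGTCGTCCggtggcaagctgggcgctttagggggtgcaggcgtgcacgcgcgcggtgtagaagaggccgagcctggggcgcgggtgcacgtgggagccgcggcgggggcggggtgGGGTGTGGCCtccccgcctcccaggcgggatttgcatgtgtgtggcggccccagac
Stim1 (chr7:102267569-102267818, plus strand): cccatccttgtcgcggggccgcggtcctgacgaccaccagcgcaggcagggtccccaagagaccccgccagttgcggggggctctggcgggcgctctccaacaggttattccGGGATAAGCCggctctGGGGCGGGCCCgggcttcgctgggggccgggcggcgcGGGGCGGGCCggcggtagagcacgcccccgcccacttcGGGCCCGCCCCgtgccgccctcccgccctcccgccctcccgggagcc
The Itpr3 window held 3 matches, the Stim1 window 8 and that of Camk2d 0. A stretch that fits the motif on both strands was counted once for each strand, which occurs in the Stim1 window. No window of Atp2a2 was used here, so the motif was read in 3 of the 4 genes that rose. The motif is loose and rich in G and C: 45.8% of all 32851 windows of this length held it. The 32 members matched had 41 windows, and 27 members held the motif in at least 1 of theirs. The first share is per window and the other per gene, so they cannot be compared. The printed windows were 72.0% and 78.4% G and C, where the median window was 52.4%. The E-box CATATG, bound by the acinar transcription factor Mist1 (Bhlha15), occurred in 3.46% of all windows and in none of the members' windows. A match describes the letters and not a bound site.

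In store-operated entry, Stim1, which senses calcium in the store, rose (chr7:102267806-102437319, plus strand, ENSMUSG00000030987.5, GRCm38). It had 41.4, 46.1 and 38.6 CPM in the wild-type libraries and 62.1, 56.8 and 48.7 CPM in the Eda-/- libraries. The groups did not overlap, and Eda-/- 1 was the highest. The change was 0.41 (SE 0.10, interval 0.21 to 0.61, edgeR adjusted p = 0.0110), and it passed with each library left out (0.33 to 0.50, adjusted p up to 0.0479). Stim2, the other sensor, had 42.8, 45.4 and 42.0 CPM in the wild-type libraries and 46.4, 54.3 and 47.8 CPM in the Eda-/- libraries. All 3 Eda-/- values were the higher, and Stim2 did not pass (0.19, SE 0.08, adjusted p = 0.148). Of the channel genes, Orai1 had 2.74, 3.06 and 3.59 CPM in the wild-type libraries and 5.06, 3.37 and 3.82 CPM in the Eda-/- libraries. The groups overlapped, and the interval of its change (0.39) ran from -0.05 to 0.82 (adjusted p = 0.245). Orai3 had 7.70 to 10.5 CPM in wild-type and 7.51 to 8.81 CPM in Eda-/- (-0.11), and Orai2, with 4 to 16 counts a library, had an interval of -1.58 to 0.39.

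Among the pumps, Atp2a2, which encodes SERCA2 and had the highest level per kb of the 38, rose (chr5:122453513-122502225, minus strand, ENSMUSG00000029467.15, GRCm38). It had 219, 247 and 239 CPM in the wild-type libraries and 283, 295 and 294 CPM in the Eda-/- libraries. The groups stood clear of each other. The change was 0.31 (SE 0.07, interval 0.15 to 0.47, edgeR adjusted p = 0.0133), but it did not pass without wild-type 1 (0.27, adjusted p = 0.0659). Atp2a3, the other SERCA gene, had 7.48 to 9.44 CPM in wild-type and 7.50 to 11.2 CPM in Eda-/- (0.21, adjusted p = 0.418). Atp2b1 and Atp2b4, which pump calcium out of the cell, gave no call, with log2 intervals of -0.23 to 0.08 and -0.30 to 0.62. The TRPV channels, which admit calcium from outside, had values below 0 and did not pass. Trpv6 had 12.7, 12.8 and 11.8 CPM in the wild-type libraries and 11.8, 6.75 and 10.8 CPM in the Eda-/- libraries (-0.34, adjusted p = 0.185). The lowest was Eda-/- 2, and Eda-/- 1 lay just under the lowest wild-type library. Trpv4, an osmosensitive channel with 6 to 26 counts a library, had -0.55 (interval -1.26 to 0.16).

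Among the kinases, Camk2d, a subunit of calmodulin-dependent kinase II, rose (chr3:126596302-126846326, plus strand, ENSMUSG00000053819.16, GRCm38). It had 29.9, 27.8 and 28.8 CPM in the wild-type libraries and 38.4, 41.3 and 38.4 CPM in the Eda-/- libraries. Values within each group were close together and the groups far apart. The change of 0.45 (SE 0.08, interval 0.28 to 0.62, edgeR adjusted p = 0.00165) was the highest of the 33 and passed with each library left out (0.42 to 0.49, adjusted p up to 0.0141). Prkca, the protein kinase C that needs both calcium and diacylglycerol, had 21.5, 23.4 and 22.1 CPM in the wild-type libraries and 16.2, 20.1 and 18.1 CPM in the Eda-/- libraries. All 3 Eda-/- values were the lower, and the change of -0.30 (SE 0.10) missed the threshold at adjusted p = 0.0506. It passed with no filter on low counts (adjusted p = 0.0474), with a filter of 1 CPM in 3 libraries (0.0464) and without Eda-/- 2 (0.0347). Prkcd and Prkce, kinases that need diacylglycerol but no calcium, did not pass, with log2 intervals of -0.31 to 0.21 and -0.27 to 0.32. Adcy6, an adenylyl cyclase that calcium inhibits, had 71.2, 68.0 and 66.3 CPM in the wild-type libraries and 83.0, 77.0 and 78.4 CPM in the Eda-/- libraries. All 3 Eda-/- values were the higher. Adcy6 did not pass (0.21, SE 0.07, adjusted p = 0.0613), and did after correction for GC content and length (0.24, adjusted p = 0.0180).

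**Figure D3:**
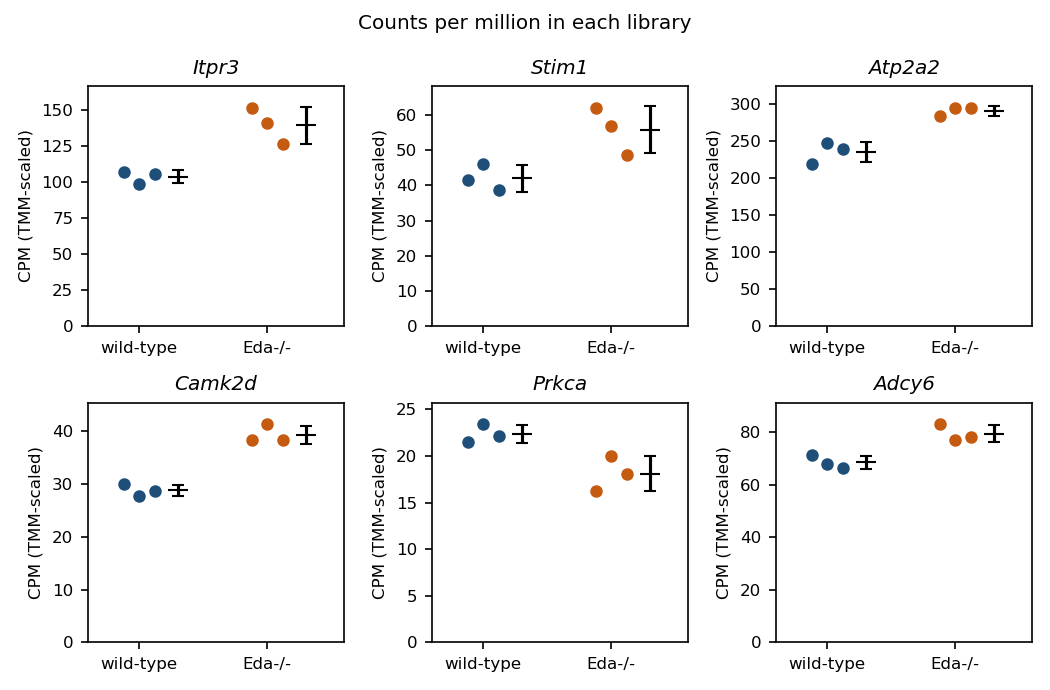
TMM-scaled CPM in each library (points, 3 per genotype, replicates 1 to 3 from left to right) with mean and SD (black) for the 4 genes that rose and for Prkca and Adcy6, which missed the threshold. In all 6 panels the Eda-/- points lie wholly to one side of the wild-type points, below them for Prkca and above them for the others.

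Shares within a family do not depend on how libraries are scaled. They were computed per library from counts per kb of exon and compared by exact two-sided permutation over the 6 libraries, where 3 against 3 cannot give a p under 0.1. The share of Itpr3 among the inositol trisphosphate receptors was 86.1%, 84.6% and 83.3% in wild-type and 86.9%, 88.1% and 86.1% in Eda-/-. It was 2.34 percentage points higher in Eda-/- on average, and the nearest libraries of the groups were both at 86.1%. The share of Stim1 in the STIM pair was 32.4%, 33.4% and 31.3% in wild-type and 39.8%, 34.1% and 33.5% in Eda-/-, with Eda-/- 1 the highest. With the longest transcript as length it was 52.2% ± 1.23 in wild-type and 56.0% ± 3.65 in Eda-/-. Orai1 made up 24.8% ± 1.52 (SD, n = 3) of the Orai channels in wild-type and 31.8% ± 5.60 in Eda-/-, again highest in Eda-/- 1. Without Eda-/- 1 the difference in the Stim1 share was 1.43 percentage points in place of 3.47, and that in the Orai1 share 3.63 in place of 6.93. The share of Prkce among Prkca, Prkcd and Prkce was 17.8%, 14.9% and 16.5% in wild-type and 18.8%, 18.4% and 18.1% in Eda-/-. The difference of 2.02 points was 1.28 without wild-type 2. With the longest transcript as length the Prkce shares overlapped, at 14.5%, 12.2% and 13.2% in wild-type and 14.9%, 15.1% and 14.1% in Eda-/- (exact p = 0.2). Per kb of exon, the groups did not overlap for these 4 shares, nor for those of Itpr1 and Orai3, which were lower in Eda-/-. Each had the smallest exact p of 0.1, which was 0.333 after Benjamini-Hochberg adjustment over 20 shares. The shares of Atp2a2 (96.1% ± 0.410 and 96.4% ± 0.698, exact p = 0.7) and Plcb4 (88.1% ± 0.953 and 88.4% ± 1.85, exact p = 0.7) overlapped between the groups. Prkca made up 44.2%, 46.1% and 41.5% in wild-type and 38.2%, 43.6% and 36.4% in Eda-/- of the same kinases, overlapping between the groups.

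**Figure D4:**
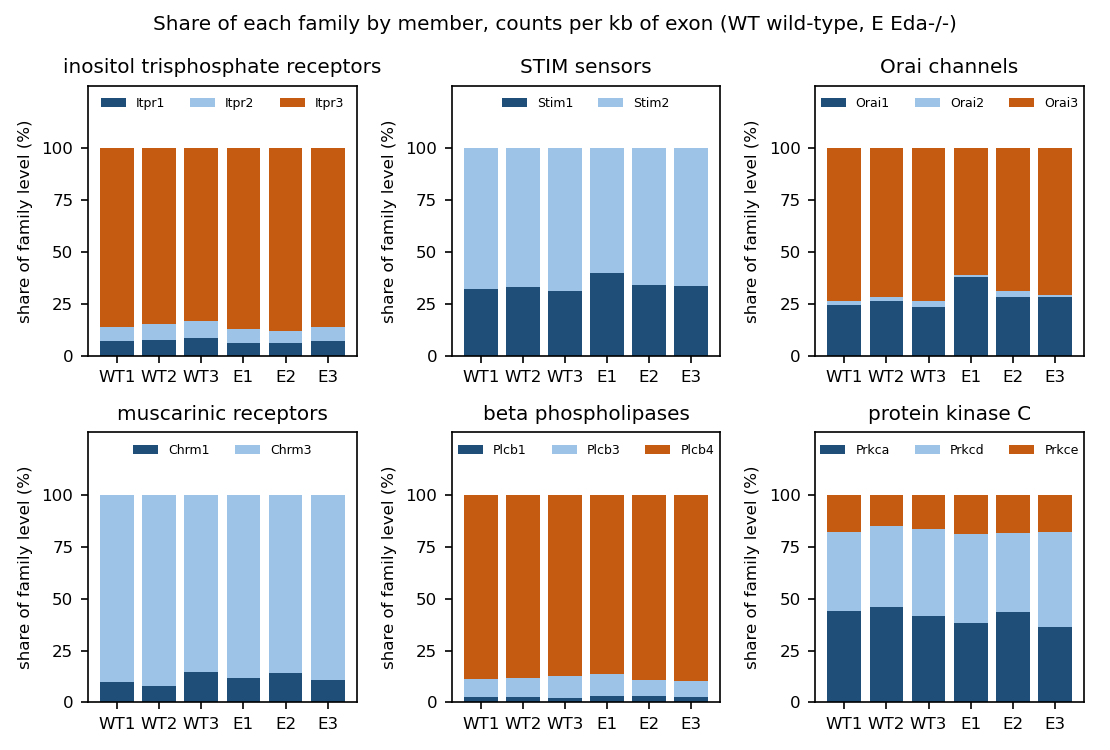
Share of each family's summed level, in counts per kb of exon, taken by each member, as stacked bars reaching 100% for the 3 wild-type (WT1 to WT3) and 3 Eda-/- (E1 to E3) libraries. Among the listed genes of each family, Itpr3, Chrm3 and Plcb4 hold most of the level in all 6 libraries, and Eda-/- 1 has the highest Stim1 and Orai1 shares.

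Levels per kb were also summed by role, as a description led by the most abundant genes. Of 12 roles, the Eda-/- libraries all lay above the wild-type libraries in 5, all below in 3, and overlapped with them in 4. Among single tested genes 32.1% did not overlap, and no such share was computed for sums of other genes. No member passed in the G protein, phospholipase, VIP receptor and TRPV roles. In CPM per kb (mean ± SD, n = 3 each), the release channels, led by Itpr3, summed to 13.6 ± 0.580 in wild-type and 17.8 ± 1.56 in Eda-/-, and the pumps, led by Atp2a2, to 44.4 ± 2.49 in wild-type and 53.7 ± 1.20 in Eda-/-. The other sums that lay above were those of the store-operated entry genes, the G protein subunits, and the kinases with the cyclase. Those that lay below were the phospholipases, led by Plcb4, at 24.7 ± 1.12 in wild-type and 21.9 ± 0.205 in Eda-/-, the VIP receptors and the TRPV channels. The muscarinic, alpha1, beta adrenergic and purinergic receptor sums overlapped between the groups.

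Other genes of the same pathways were read from 7 lists, of which 240 genes were in the table and 176 were tested. Among them 10 rose and 10 fell, 11.4% of those tested beside 13.1% of all genes, with a median of -0.08. The highest change was that of Cacna1a, the pore subunit of the P/Q-type voltage-gated calcium channel. It had 1.25, 1.82 and 1.73 CPM in the wild-type libraries and 12.4, 12.3 and 11.7 CPM in the Eda-/- libraries (log2 2.91, SE 0.17, edgeR adjusted p = 7.80e-09). Cacna1d, a pore subunit of L-type channels, fell, with 2.13 ± 0.562 CPM in wild-type against 0.744 ± 0.269 CPM in Eda-/- (log2 -1.50, adjusted p = 0.00887). Smdt1, a regulator of the mitochondrial calcium uniporter, rose (0.49), as did Letm1, a cation exchanger of the mitochondrial inner membrane (0.37). The mechanosensitive channel Piezo1 (-0.47) and the cation channel Pkd2 (-0.45) fell. These 6 are all that passed of 35 channels, pumps and exchangers tested.

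Of 37 phosphoinositide and diacylglycerol enzymes tested, 2 rose and 3 fell. Itpkb, a kinase that phosphorylates inositol trisphosphate, had 40.3, 43.7 and 43.3 CPM in the wild-type libraries and 25.9, 30.1 and 29.0 CPM in the Eda-/- libraries. All Eda-/- values lay below all wild-type values (log2 -0.58, SE 0.08, edgeR adjusted p = 0.00028). Dgkz, a diacylglycerol kinase, and Plch2, a phospholipase C, also fell (-0.47 and -1.02). Plcd1, a phospholipase C of the delta class, rose (0.73), as did Cdipt, which makes phosphatidylinositol (0.33). Among 34 cyclic AMP genes tested, 3 rose and 1 fell. Pde4d, which degrades cyclic AMP, had 22.6, 25.7 and 23.2 CPM in the wild-type libraries and 32.0, 35.3 and 31.2 CPM in the Eda-/- libraries (0.46, adjusted p = 0.00298), and Pde4b, of the same family, rose by 0.31. Akap5, an anchoring protein of protein kinase A, had 1.62 ± 0.284 CPM in wild-type and 5.96 ± 0.748 CPM in Eda-/- (1.87, adjusted p = 1.75e-05), and the cyclase Adcy2 fell (-1.17).

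Of 24 calcium-binding and calmodulin genes tested, Calr, a calcium buffer of the endoplasmic reticulum, rose (0.29) and the kinase Camk1d fell (-1.13). Of 11 further receptors tested, the ATP-gated channels P2rx6 (1.47) and P2rx3 (-0.79) passed, the first higher and the other lower. Of 9 further genes of protein kinase C and D tested, Marcks, a kinase C substrate, fell (-0.71). None of 26 G protein subunits and receptor regulators passed in edgeR, with 2 higher and 3 lower at an unadjusted p under 0.05, a threshold that 1747 and 1878 of all 13178 genes passed. With each library left out in turn, 8 of the 20 calls held throughout: Akap5, Cacna1a, Cacna1d, Dgkz, Itpkb, P2rx3, Pde4d, Smdt1. The other 12 were lost without at least 1 library: Adcy2 (without wild-type 1, Eda-/- 1, adjusted p up to 0.0615), Calr (without wild-type 1, wild-type 2, Eda-/- 3, adjusted p up to 0.118), Camk1d (without wild-type 3, Eda-/- 2, Eda-/- 3, adjusted p up to 0.0898), Cdipt (without wild-type 1, adjusted p up to 0.0727), Letm1 (without wild-type 1, wild-type 2, Eda-/- 1, Eda-/- 2, adjusted p up to 0.0791), Marcks (without Eda-/- 1, Eda-/- 3, adjusted p up to 0.0721), P2rx6 (without Eda-/- 3, adjusted p up to 0.0598), Pde4b (without wild-type 1, wild-type 2, Eda-/- 2, Eda-/- 3, adjusted p up to 0.127), Piezo1 (without wild-type 2, wild-type 3, Eda-/- 1, Eda-/- 2, Eda-/- 3, adjusted p up to 0.203), Pkd2 (without wild-type 1, wild-type 2, Eda-/- 2, Eda-/- 3, adjusted p up to 0.106), Plcd1 (without wild-type 2, Eda-/- 1, adjusted p up to 0.112), Plch2 (without wild-type 3, Eda-/- 3, adjusted p up to 0.0804). With library totals Calr (0.01), Pde4b (0.03), Cdipt (0.05), Letm1 (0.09), Pde4d (0.18), Smdt1 (0.21) and Plcd1 (0.45) did not pass. DESeq2 did not call 5 of the 20: Cdipt (adjusted p = 0.0707), Letm1 (adjusted p = 0.0598), Pde4b (adjusted p = 0.0565), Piezo1 (adjusted p = 0.108), Pkd2 (adjusted p = 0.0671).

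**Figure D5:**
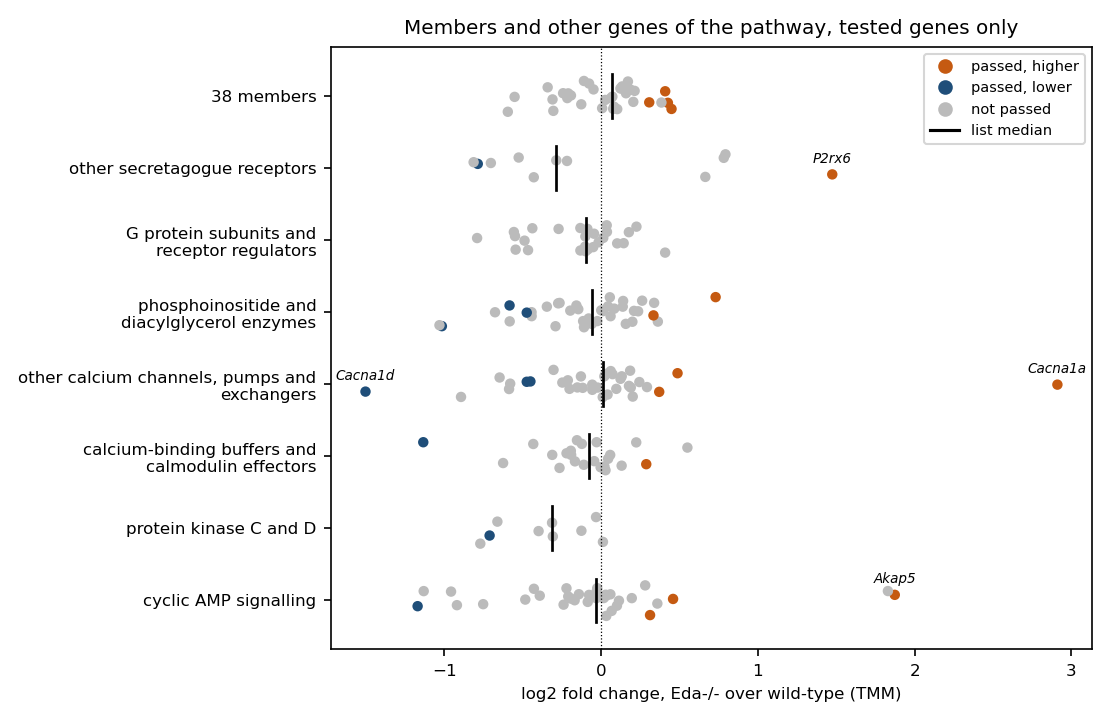
Log2 fold change of Eda-/- over wild-type for the 33 tested members and for the tested genes of 7 further lists, 1 point per gene with random vertical spread, orange and blue where the gene passed higher or lower, and a bar at each list's median. The members lie within -0.59 to 0.45, and Cacna1a at 2.91 lies to the right of all other points.

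Markers of cell types moved with the genotype beside these changes. Of 10 acinar markers 4 rose (Mucl2, Scgb2b24, Bhlha15 and Xbp1) and none fell. The sum of the 10, most of it Mucl2 and Scgb2b24, was 69286 to 73894 CPM in wild-type and 131235 to 180563 CPM in Eda-/-. Aqp5 (log2 0.23, edgeR adjusted p = 0.0672) and Car6 (0.81) lay higher in all Eda-/- libraries and did not pass. Slc12a2 lay lower in all of them (82.5 to 90.5 CPM in wild-type, 44.0 to 81.4 CPM in Eda-/-). It did not pass (-0.48), nor did Lcn11 (-0.17). Of 10 myoepithelial and smooth muscle markers 4 fell and none rose, with sums of 144 to 190 CPM in wild-type and 109 to 125 CPM in Eda-/-. Of 8 fibroblast markers 3 fell and none rose (151 to 174 CPM in wild-type and 114 to 119 CPM in Eda-/-), and of 6 duct markers tested 1 fell (467 to 512 CPM in wild-type and 425 to 482 CPM in Eda-/-). Of 7 endothelial markers tested 1, Vwf, fell, with means of 18.9 CPM in wild-type and 9.36 CPM in Eda-/-. The others tested ran from log2 -0.30 (Cdh5) to 0.10 (Kdr) and did not pass. The endothelial sum was 40.3 to 52.8 CPM in wild-type and 33.7 to 37.98 CPM in Eda-/-. The only mast cell marker tested, Kit, fell, with means of 12.7 CPM in wild-type and 6.90 CPM in Eda-/-. Kit held most of the sum over 6 genes (13.5 to 15.5 CPM in wild-type and 7.31 to 11.4 CPM in Eda-/-). The untested Cpa3, Cma1, Mcpt4 and Fcer1a had higher means in Eda-/- and Tpsb2 a lower one, each at or below 0.629 CPM. T cell markers were too low to be tested (1.35 to 2.18 CPM in wild-type and 0.698 to 0.843 CPM in Eda-/-), and nerve markers summed to 14.1 to 15.7 CPM in wild-type and 12.5 to 14.7 CPM in Eda-/-. Their part in the increases of Itpr3, Stim1, Atp2a2 and Camk2d was not tested.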

How the data were processed

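RNA of 6 lacrimal glands (3 wild-type, 3 Eda-/-) was sequenced. The authors deposited 1 table of raw counts of reads per gene with 1 column per sample. Per the submitters' processing notes, bcl2fastq, Trimmomatic, STAR, featureCounts, DESeq2 and build GRCm38.p5 were used, with versions, strand setting and treatment of multiply mapped reads not given in the sources used here. Of 50686 identifiers, 50462 matched GENCODE M21 (GRCm38), which gave symbols, positions and exon lengths.

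Genes passing filterByExpr (minimum count 10, 13178 genes, with 99.7% or more of a library's counts) entered edgeR 4.0.16 under R 4.3.3: TMM, robust quasi-likelihood fit, genotype alone, two-sided, Benjamini-Hochberg threshold 0.05. SE is the log2 fold change over the root of F. On simulated data the script recovered 25 of 65 genes changed by a log2 of 0.5, 47 of 65 at 1 and 68 of 69 at 2. It also made 17 false calls there. Chi-square per degree of freedom between replicates was 9.08 to 28.9, so no library was a duplicate. Alternatives were DESeq2 1.42.0, other scalings and filters, a replicate block, leaving out the 20 most abundant genes, correction for GC content and length, and each library left out. All 38 members are named, with up to 3 passing genes per direction of each further list. Members and lists were chosen with earlier results of these data known.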

Additional observations from a re-analysis of the deposited data

How the results depend on the processing

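Itpr3, Stim1, Atp2a2 and Camk2d passed higher under DESeq2, DESeq2 size factors, both other filters, without the 20 most abundant genes and after correction for GC content and length. DESeq2 called 548 genes higher and 695 lower. With library totals 0 members passed higher and 9 lower (Plcb4, P2rx7, Trpv6, Plcg2, Vipr1, Atp2b1, Prkca, Chrm3, Plcb3), other pathway genes numbered 3 higher and 69 lower, and all genes 246 higher and 4365 lower. With no filter on low counts, or 1 CPM in 3 libraries, 1 member passed lower, and with correction for GC content and length 6 passed higher. With each library left out, members numbered 3 to 4 higher and 0 to 1 lower, other pathway genes 6 to 11 and 7 to 9, and all genes 561 to 677 and 599 to 834. Same-numbered libraries did not deviate together (r = -0.035, 0.021 and -0.094), so the numbers give no pairing. A replicate block gave 4 members higher and 0 lower, with no member's call changed, and 712 genes higher and 896 lower. With library totals these uncalled members had the other sign, as that scaling moves the median of all genes by -0.28: Chrm1 -0.18, Adra1a -0.15, P2rx4 -0.20, Gnaq -0.21, Gna11 -0.19, Gnas -0.15, Plcb1 -0.27, Plcg1 -0.22, Itpr1 -0.16, Itpr2 -0.11, Stim2 -0.09, Atp2a3 -0.08, Atp2b4 -0.12, Prkce -0.26, Adcy6 -0.06. Uncalled values near 0 changed sign with 1 library left out, over these ranges: Chrm1 -0.07 to 0.30, Gna11 -0.0018 to 0.15, Plcb1 -0.12 to 0.11, Plcg1 -0.01 to 0.20, Orai3 -0.19 to 0.06, Atp2b4 -0.03 to 0.38, Prkcd -0.17 to 0.04, Prkce -0.03 to 0.08; the cause was not tested. Of the family shares, 221 values under other settings moved by less than 1 SD and 3 by more, and the differences of Gnaq, Plcb4, Atp2a2 and Adra1a took either sign with 1 library left out. Depth limits Adra1b, Vipr2, P2ry2, Ryr1 and Adrb1, which had too few counts to be tested.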

Other observations

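Genes within 1 Mb of the 4 genes that rose were read from the same edgeR test, where 13.1% of all tested genes were called. There 4 rose and 1 fell of 12 tested around Camk2d (41.7%), 3 rose and 4 fell of 34 tested around Itpr3 (20.6%), 1 rose and 3 fell of 24 tested around Stim1 (16.7%) and 0 rose and 1 fell of 47 tested around Atp2a2 (2.13%). Pde3b, a cyclic AMP phosphodiesterase known from fat cells and chosen after its values were seen, had 2.37, 3.59 and 5.01 CPM in the wild-type libraries and 20.9, 6.84 and 11.1 CPM in the Eda-/- libraries. All Eda-/- values were the higher, with a wide spread, and the change did not pass (log2 1.83, edgeR adjusted p = 0.119). Of 3 adipocyte markers tested 2 rose (Fabp4 and Cfd) and Plin4 did not pass (-0.11). The 8 listed summed to 6.11 to 7.82 CPM in wild-type and 8.82 to 11.2 CPM in Eda-/-. Of the untested ones, Adipoq and Plin1 had higher means in Eda-/-, Pparg and Lep lower ones, and Cidec the same, each at or below 0.785 CPM. The part of fat cells in the Pde3b values was not tested.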
